A study of Junco hyemalis with 13 samples.

Results

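The 4 stress axis genes, CRH, AVPR1A, NR3C2 and HSD11B2, were followed in the hypothalamus of male dark-eyed juncos from a resident and a migrant population. Each is 1 annotated element, found by its symbol in the annotation of the junco elements against zebra finch proteins, so that 4 of 15363 elements are described here. CRH (NP_001232541.1) is annotated as a putative corticotropin releasing hormone precursor, AVPR1A (XP_002187321.1) as vasopressin V1a receptor, NR3C2 (NP_001070158.1) as mineralocorticoid receptor and HSD11B2 (XP_002187491.2) as corticosteroid 11-beta-dehydrogenase isozyme 2. All 4 passed the filter on low counts and stand among the 9938 elements tested.

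The residents (Junco hyemalis carolinensis, n = 7) live all year near the capture site in Virginia. The migrants (Junco hyemalis hyemalis, n = 6) winter in the same flocks and breed farther north. All 13 birds were free-living males netted at this site in March, at the start of spring, assigned to a population by bill colour, plumage and wing length, and killed within minutes of capture. No treatment is described for any bird, and ages are not given in the sources used here. Hypothalamic punches gave 1 library of polyadenylated RNA per bird, so a fold change here compares birds of the 2 populations and a difference in origin cannot be told apart from a difference in migratory or reproductive state.

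In the stress axis of birds, CRH from neurons of the paraventricular nucleus drives the pituitary to release ACTH, which in turn makes the adrenal gland release corticosterone. Vasotocin, the avian counterpart of vasopressin, acts on the brain and pituitary through receptors related to AVPR1A and can strengthen the action of CRH. Corticosterone feeds back on the brain through the mineralocorticoid receptor NR3C2, which binds it with high affinity, and the glucocorticoid receptor. HSD11B2 turns corticosterone into an inactive form and so limits its access to these receptors. The steps of this axis outside the brain, in pituitary and adrenal gland, were not measured.

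Total counts ran from 4308064 to 5469786 read pairs in residents and from 4319503 to 5826833 in migrants. Levels are given as CPM, counts scaled to library size with TMM factors, and were not divided by gene length, so they are compared between birds and not between genes. Markers of the labelled tissue were present: the hypothalamic peptide genes NPVF and PENK averaged 507.1 and 521.2 CPM in residents and 357.3 and 491.7 CPM in migrants. CLDN2, a marker of choroid plexus, was too low to test, with 21 counts over all libraries. The other listed choroid plexus markers, TTR, KL and FOLR1, and all listed pituitary markers could not be matched to a name. The presence of these 2 tissues was therefore not judged. DCN and VWF, of meninges and vessels, averaged 43.7 and 172.7 CPM in residents and 48.7 and 150.5 CPM in migrants. Migrant replicate 1 and resident replicate 4 stood apart from the other libraries on the first principal component of all other genes, with scores of 49.2 and 42.7 where the remaining birds lay between -21.5 and 2.35. In bulk tissue, fewer cells of a type and less RNA per cell cannot be told apart.

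None of the 4 genes differed between residents and migrants by edgeR's quasi-likelihood test, in which 0% of the 9938 genes were higher and 0% were lower in residents at an adjusted p of 0.05. At an unadjusted p of 0.05 none of the 4 passed, against 4.45% of all genes (442 genes). DESeq2 called 3 genes in all, 0.0302% of those tested, and none of the 4. CRH had the largest estimate of the 4, and 6.49% of all genes had one at least as far from 0. CRH, AVPR1A and NR3C2 had estimates above 0 in residents and HSD11B2 an estimate below 0, where 50.4% of all genes had an estimate above 0. In each of the 4 genes the residents overlapped the migrants, as they did in all but 0.131% of the genes tested. The adjusted p of each of the 4 was 0.996 from edgeR and 0.999 from DESeq2.

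**Figure D1:**
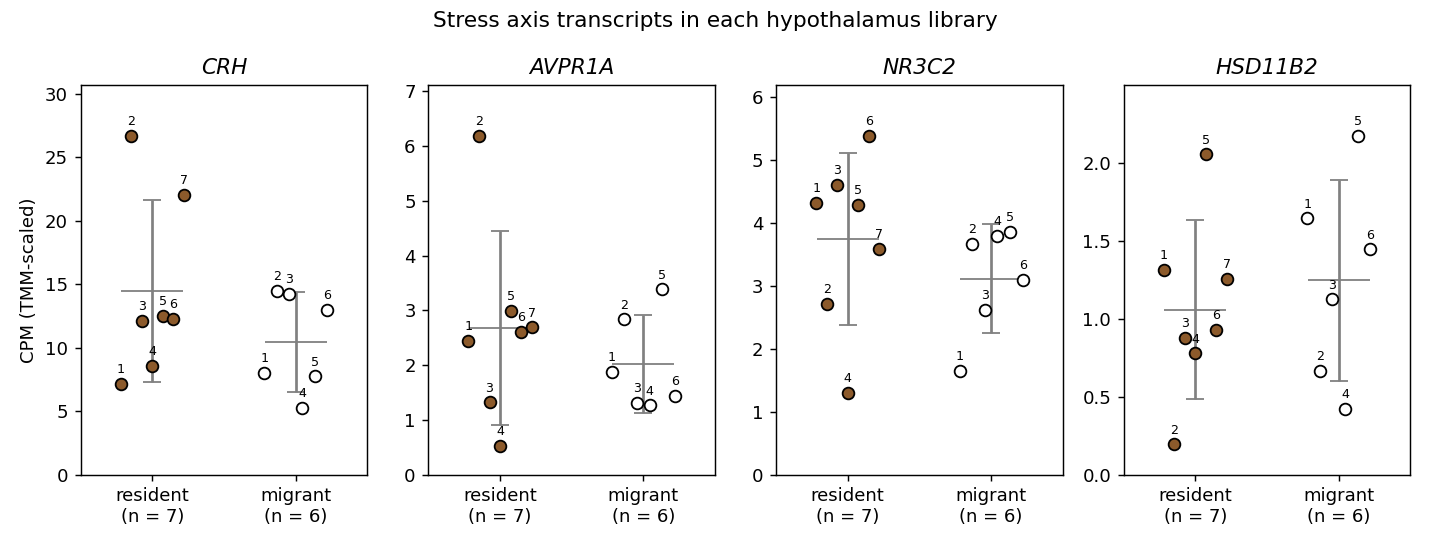
TMM-scaled CPM of CRH, AVPR1A, NR3C2 and HSD11B2 in each library, residents (brown, n = 7) left and migrants (white, n = 6) right, with replicate numbers beside the points and grey bars for the mean and SD. The populations overlap in every panel, and resident replicate 2 is highest for CRH (26.7 CPM) and AVPR1A (6.19 CPM) and lowest for HSD11B2 (0.193 CPM).

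CRH, the releasing hormone at the head of the axis, was measured at 14.5 ± 7.19 CPM in residents (SD, n = 7) and 10.4 ± 3.94 CPM in migrants (SD, n = 6). The lowest, median and highest residents were at 7.13, 12.3 and 26.7 CPM, and the lowest, median and highest migrants at 5.26, 10.5 and 14.5 CPM. Resident replicates 2 and 7 lay above every migrant and the other 5 residents lay within the migrant range. The log2 fold change, resident minus migrant, was 0.46 (standard error 0.31, unadjusted p = 0.150 by edgeR). Its 95% interval ran from -0.18 to 1.11, or from 0.880-fold to 2.16-fold, so that neither equal levels nor a doubling is outside it. Taken alone, the difference in log2(CPM + 1) was 0.39, and a two-sided exact permutation over birds gave p = 0.272. A resident exceeded a migrant in 25 of 42 pairs. Without resident replicate 2 the log2 fold change was 0.25, and without migrant replicate 2 it was 0.58.

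AVPR1A, a receptor of the vasotocin family, rested on 98 counts over all residents and 59 over all migrants. Its level was 2.68 ± 1.78 CPM in residents (SD, n = 7) and 2.02 ± 0.887 CPM in migrants (SD, n = 6). The lowest, median and highest residents were at 0.518, 2.60 and 6.19 CPM, and the lowest, median and highest migrants at 1.26, 1.66 and 3.38 CPM. The residents thus held both ends of the range, with resident replicate 2 above every migrant and resident replicate 4 below every migrant. The log2 fold change was 0.43 (standard error 0.43, 95% interval -0.48 to 1.33, unadjusted p = 0.337 by edgeR). The difference in log2(CPM + 1) was 0.19, with an exact permutation p of 0.571. Most of the log2 fold change came with 1 bird, since it was 0.08 without resident replicate 2. Without migrant replicate 1 and resident replicate 4 together it was 0.57, and still did not pass.

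NR3C2, the mineralocorticoid receptor, was at 3.74 ± 1.36 CPM in residents (SD, n = 7) and 3.11 ± 0.864 CPM in migrants (SD, n = 6). The lowest, median and highest residents were at 1.29, 4.29 and 5.39 CPM, and the lowest, median and highest migrants at 1.64, 3.38 and 3.86 CPM. Resident replicates 1, 3, 5 and 6 lay above the highest migrant, and resident replicate 4 lay below the lowest. A resident exceeded a migrant in 29 of 42 pairs. The log2 fold change was 0.27 (standard error 0.32, 95% interval -0.39 to 0.94, unadjusted p = 0.403 by edgeR). The difference in log2(CPM + 1) was 0.17, with an exact permutation p of 0.490. The lowest bird of each population was the library that stood apart on the first principal component, resident replicate 4 with 5 counts and migrant replicate 1 with 7. Without both, the log2 fold change was 0.28 (unadjusted p = 0.296 by edgeR).

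HSD11B2, the enzyme that inactivates corticosterone, was the least counted of the 4, with 38 counts over all residents and 35 over all migrants. Its level was 1.06 ± 0.573 CPM in residents (SD, n = 7) and 1.25 ± 0.646 CPM in migrants (SD, n = 6). The lowest, median and highest residents were at 0.193, 0.929 and 2.05 CPM, and the lowest, median and highest migrants at 0.421, 1.28 and 2.17 CPM. No resident lay above the highest migrant, and resident replicate 2, with 1 count, lay below the lowest. The log2 fold change was -0.19 (standard error 0.47, unadjusted p = 0.697 by edgeR). The 95% interval, from -1.18 to 0.81, or from 0.441-fold to 1.75-fold, holds both equal levels and a halving. The difference in log2(CPM + 1) was -0.12, with an exact permutation p of 0.605. The sign of the log2 fold change was not fixed, since it was 0.03 without migrant replicate 5.

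NR3C2 and HSD11B2 act on the same ligand, so the difference of their log2(CPM + 1) values in each bird was compared as well. At the low level of HSD11B2 the pseudocount of 1 draws this difference toward 0, so it is not their ratio. Resident replicate 2, for example, had 2.71 CPM of NR3C2 and 0.193 CPM of HSD11B2, from 1 count, and a difference of 1.64. The difference averaged 1.19 ± 0.50 in residents (SD, n = 7) and 0.89 ± 0.63 in migrants (SD, n = 6). It ran from 0.37 to 1.73 in residents and from 0.00 to 1.75 in migrants, with the lowest value of each population again in resident replicate 4 and migrant replicate 1. The difference between populations, 0.29, did not pass (two-sided exact permutation p = 0.362). It was 0.12 without migrant replicate 1 and 0.47 without migrant replicate 4, and did not pass in either case (exact permutation p = 0.692 and 0.148).

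**Figure D2:**
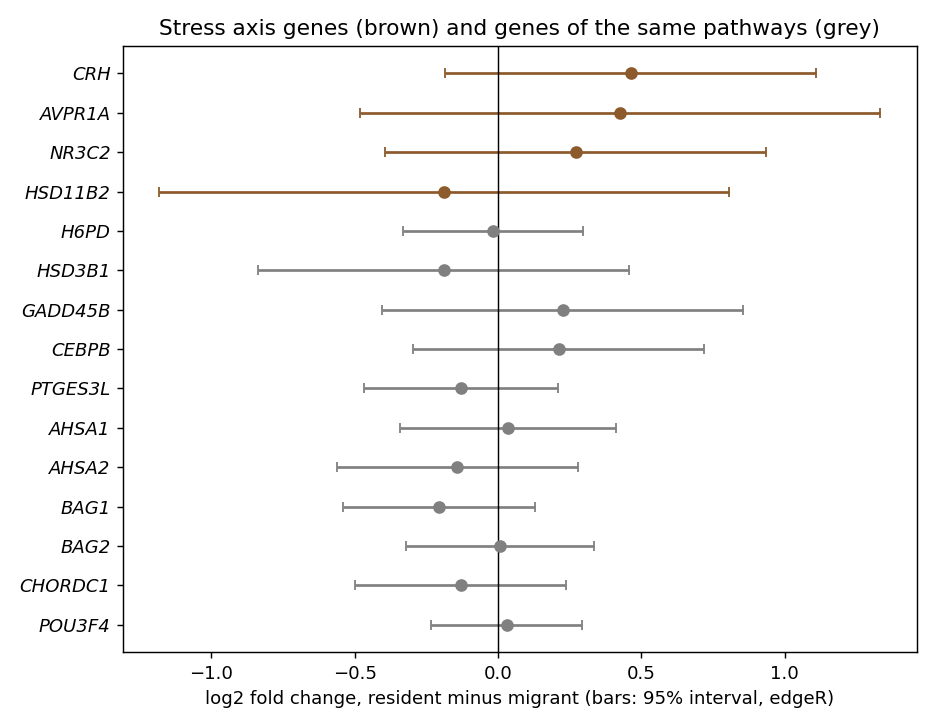
Log2 fold changes, resident minus migrant, with 95% intervals from edgeR for the 4 stress axis genes (brown) and the tested genes of the pathway lists that carry a name whatever their p (grey). Every interval crosses 0, and those of AVPR1A and HSD11B2, from -0.48 to 1.33 and from -1.18 to 0.81, are the widest.

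Other genes of these pathways were taken from lists, of which only a part could be matched to a name, and the ligands and receptors closest to the 4 genes, such as vasotocin, the CRH receptors and the glucocorticoid receptor NR3C1, were not analysed here. Of 6 measured genes for corticosteroid receptors, metabolism and targets, NR3C2 and HSD11B2 included, none was higher and none lower by edgeR's test. That test called 0% of the 9938 genes in either direction. The estimates were above 0 for 3 and below 0 for 3, where 50.4% of all genes had one above 0. Their median log2 fold change was 0.10, and the median of all genes was 0.00214. H6PD, which supplies the cofactor for the related enzyme that regenerates corticosterone, averaged 30.3 CPM in residents and 30.6 CPM in migrants, with a log2 fold change of -0.02 (95% interval -0.33 to 0.30). HSD3B1, an enzyme of steroid synthesis, had a log2 fold change of -0.19 (95% interval -0.84 to 0.46).

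Steroid receptors are held ready to bind their ligand by heat shock proteins. Of 6 measured genes for such chaperones and their helpers, none passed in either direction, where 0% of all genes did. The estimates were above 0 for 2 and below 0 for 4, with a median of -0.13. Of all genes, 50.4% had an estimate above 0. AHSA1, an activator of the chaperone HSP90, averaged 372.1 CPM in residents and 363.4 CPM in migrants, a log2 fold change of 0.03 (95% interval -0.34 to 0.41). BAG1, a cochaperone that binds the glucocorticoid receptor in mammals, had a log2 fold change of -0.21 (95% interval -0.54 to 0.13). Among genes that carry a name here only because their p was small, and that are left out of these counts for that reason, the kinase gene SGK2 had a log2 fold change of -0.58 and the chaperone gene HSPA8 one of 0.45. The transcription factor genes LHX1 and LHX5 had log2 fold changes of 0.54 and 0.58, and all 4 of these genes had an adjusted p of 0.996 from edgeR.

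CRH varied more between birds of a population than most genes of its abundance. The residents had a coefficient of variation of 49.7% and the migrants one of 37.7%, and from the counts alone 11.7% in residents and 13.9% in migrants would be found. The biological coefficient of variation that edgeR estimated for CRH within populations was 37.1%, at or above that of 92.6% of the genes nearest to it in mean abundance, up to 250 on each side. For AVPR1A the spread was 66.5% in residents and 44% in migrants, against 26.8% in residents and 32.2% in migrants from counting alone, and 64.1% of its neighbours in abundance had an estimate at or below its own. For NR3C2 the coefficients were 36.5% in residents and 27.7% in migrants, against 22.9% in residents and 25.8% in migrants from counting alone. HSD11B2 had coefficients of 54.2% in residents and 51.9% in migrants, against 43.2% in residents and 41.7% in migrants from counting. For AVPR1A in residents, the spread includes resident replicate 2, whose 6.19 CPM lay far above the next resident at 2.99 CPM.

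**Figure D3:**
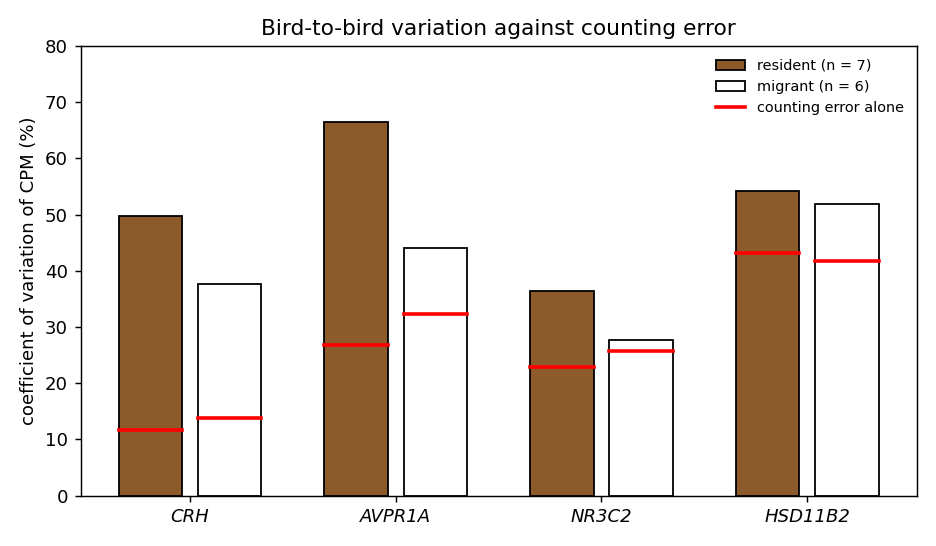
Coefficient of variation of the CPM (bars) for each gene in residents (brown, n = 7) and migrants (white, n = 6), with red lines for the value that counting error alone would give. CRH lies far above its red lines, at 49.7% in residents and 37.7% in migrants, and NR3C2 in migrants lies close to its line.

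The populations did not differ in spread by an exact permutation test. The mean absolute deviation from the population median of log2(CPM + 1) for CRH was 0.44 in residents and 0.46 in migrants (exact permutation p = 0.912). It was 0.45 in residents and 0.32 in migrants for AVPR1A (exact permutation p = 0.593) and 0.33 in residents and 0.25 in migrants for NR3C2 (exact permutation p = 0.719). For HSD11B2 it was 0.29 in residents and 0.34 in migrants (exact permutation p = 0.717). Each of these differences changed sign without some single bird. That of AVPR1A and that of NR3C2 did so without resident replicate 4, to -0.00626 and -0.0650. That of HSD11B2 did so without migrant replicate 4, to 0.0365. The difference of CRH changed sign without any single migrant, for example to 0.123 without migrant replicate 4, and without resident replicate 3, 5 or 6. Over all birds it was only -0.0175. In a group with an odd number of birds the median is itself a bird and adds no deviation. Leaving out a bird changes this, so these turns of sign say little about single birds.

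Whether the 4 genes moved together from bird to bird was asked with deviations from the population mean of log2(CPM + 1), permuting birds within populations. Of 18 relations computed, 6 among the genes and 12 with measures of the library, none had a Pearson r that passed after Benjamini-Hochberg adjustment. Among the 6 pairs, CRH and AVPR1A had the highest r, 0.49 (permutation p = 0.115, adjusted p = 0.413), with a Spearman's rho of 0.48 (permutation p = 0.117, adjusted p = 0.525). The r was 0.69 in residents and 0.05 in migrants. It was 0.41 without migrant replicate 1 and resident replicate 4, and 0.14 without resident replicates 2 and 7, the birds farthest from the median in CRH. Whether the relation rests on these last 2 birds cannot be told, since leaving them out also narrows the range of CRH. The other 5 pairs had r between -0.22 for CRH with HSD11B2 and 0.35 for AVPR1A with NR3C2. CRH with NR3C2 had r = -0.02 over all birds and -0.71 without migrant replicate 1 and resident replicate 4 (adjusted permutation p = 0.309), and AVPR1A with NR3C2 had -0.33 without them, so both values depend on these libraries.

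CRH was lower in birds with more haemoglobin transcript. This transcript is taken here as a likely sign of blood in the tissue, which was not tested. The summed CPM of the 3 measured haemoglobin genes averaged 5627 ± 2345 in residents (SD, n = 7) and 8329 ± 2811 in migrants (SD, n = 6). All 3 of these genes had estimates below 0 in residents, where 50.4% of all genes had one above 0. HBAA and HBAD had an unadjusted p under 0.05 by edgeR, as did 4.45% of all genes, and none of the 3 passed after adjustment. These 2 made up nearly all of the sum, with 281999 and 144499 counts over all libraries against 97 for HBE1. All 3 are haemoglobin genes measured in the same libraries, so they are not separate results. The highest haemoglobin sums were those of migrant replicate 5, resident replicate 4 and migrant replicate 4, all among the 5 birds with the lowest CRH. Pearson's r of CRH with the log2 sum was -0.70 (permutation p = 0.0130, adjusted p = 0.117) and Spearman's rho was -0.84 (permutation p = 0.00138, adjusted p = 0.0248), so the rank relation passed and the linear one did not. The r was -0.65 in residents and -0.78 in migrants, and -0.64 without resident replicate 4 and migrant replicate 2, the birds farthest from the median of the haemoglobin measure. Of all genes tested, 1.38% had an r at or below that of CRH, and the median r was -0.0133.

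The haemoglobin measure also moved with the population difference of CRH. In a fit with the log2 haemoglobin sum as a covariate, added after this relation had been seen, the log2 fold change of CRH was -0.06 (standard error 0.29), against 0.46 without it. That of AVPR1A was 0.05 (standard error 0.54), that of NR3C2 0.12 (standard error 0.39) and that of HSD11B2 -0.14 (standard error 0.60). Haemoglobin itself overlaps with population, and the part of haemoglobin in the CRH estimate cannot be told apart from that of population in these birds.

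NR3C2 was lowest in the 2 libraries that stood apart. Its Pearson r with the first principal component (24.3% of the variance) was -0.83 (permutation p = 0.00962, adjusted p = 0.117), while Spearman's rho was only -0.17 (permutation p = 0.600, adjusted p = 0.830). Without migrant replicate 1 and resident replicate 4, taking the same scores, the r was -0.14, so the relation rests on these libraries. Of all genes tested, 8.16% had an r at or below that of NR3C2. The r with this component was -0.29 for CRH, -0.37 for AVPR1A and -0.08 for HSD11B2 (adjusted permutation p of 0.528, 0.483 and 0.963). For the total count of the library the r was 0.55 for CRH, 0.49 for AVPR1A, 0.39 for NR3C2 and -0.34 for HSD11B2, with adjusted permutation p from 0.365 to 0.502. Spearman's rho was 0.64 for CRH (permutation p = 0.0270, adjusted p = 0.243), 0.55 for AVPR1A, 0.09 for NR3C2 and -0.24 for HSD11B2.

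**Figure D4:**
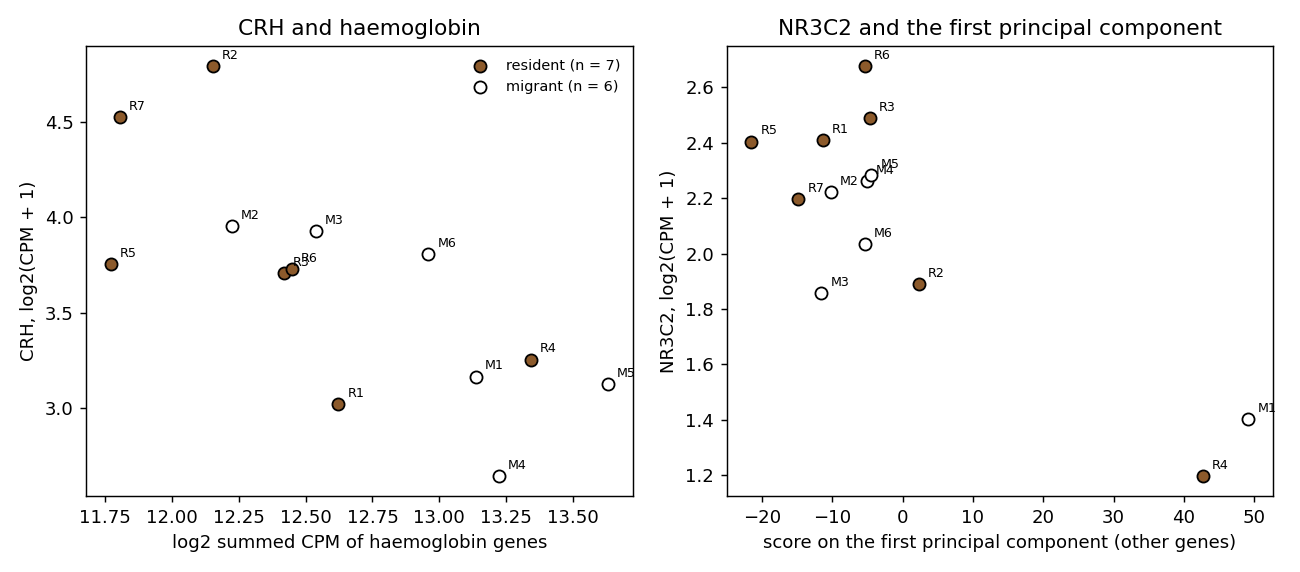
Left, CRH as log2(CPM + 1) against the log2 summed CPM of 3 haemoglobin genes, and right, NR3C2 as log2(CPM + 1) against the score on the first principal component of the other genes, with residents (R, brown, n = 7) and migrants (M, white, n = 6). CRH falls along the haemoglobin axis in both populations (r = -0.65 in residents and -0.78 in migrants), and NR3C2 is lowest in R4 and M1, without which r was -0.14.

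The genes most like each of the 4 were looked for by Pearson's r of population-centred log2 CPM over the 13 birds, as a description. The search covered 884 genes that carry a name whatever their p and have a mean of at least 20 counts. Most of the 9938 genes tested were thus not compared. After the 3 genes named for each, the next gene had r of 0.71 for CRH, 0.73 for AVPR1A, 0.92 for NR3C2 and 0.63 for HSD11B2. An r above 0.5 was found for 3.51% of the genes compared for CRH, 6.56% for AVPR1A, 10.9% for NR3C2 and 3.51% for HSD11B2. The median r was -0.09 for AVPR1A, -0.35 for NR3C2 and -0.12 for HSD11B2. Each partner was picked for its high r over these same birds, so its r within populations or without some libraries is not separate support. CRH was closest to CDH7, which encodes a cadherin of cell adhesion, with r = 0.83 over all birds, 0.75 in residents and 0.94 in migrants, and 0.80 without the 2 libraries that stood apart. Next for CRH came FAM133B and PRRG3, with r of 0.73 and 0.71, where the median over the genes compared was -0.09. AVPR1A was closest to FAM133B (r = 0.77), TMCC3 (0.76) and SYNGR3, a synaptic vesicle protein gene (0.73), and the last of these had r = 0.89 in residents and 0.03 in migrants.

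NR3C2 was closest to INO80D (r = 0.93), MEF2D, a transcription factor of neurons and muscle (0.92), and LOC100221863, annotated as a nicotinic acetylcholine receptor alpha-7-like subunit (0.92). Without the 2 libraries that stood apart these values were 0.65, 0.65 and 0.59. HSD11B2 was closest to ALDH3A2, which encodes a fatty aldehyde dehydrogenase, with r = 0.77 over all birds, 0.72 in residents and 0.87 in migrants, and 0.87 without those libraries. LOC100219438 and the element annotated as MSH4, a gene of meiotic recombination, followed with r of 0.67 and 0.64. The latter element averaged 203.5 CPM in residents and 216.7 CPM in migrants, and whether its name is right was not tested. All points share the libraries, and with low counts the r of AVPR1A, NR3C2 and HSD11B2 also carries counting error.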

How the data were processed

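Raw counts, as deposited, give for each annotated element the read pairs that the authors assigned to it. Their methods trim with Trimmomatic 0.33, align by STAR 2.5.3a against a draft assembly of the junco, and take pairs with a unique alignment in featureCounts. Subread 2.0.0 and GSNAP are further names in the submitters' processing notes. Pairs shared by near-identical genes were therefore lost before deposit. For the strand setting of the counting, the sources used here give nothing. Whether reads of overlapping genes on opposite strands were separated is therefore not known.

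Populations were taken from the sample titles. Tests covered elements reaching 5 counts in 6 or more of the 13 libraries, with edgeR 4.0.16 (TMM, quasi-likelihood, Benjamini-Hochberg at 0.05) in R 4.3.3. Alternatives were DESeq2 1.42.0, limma-voom (3.58.1), the likelihood ratio test of edgeR, other normalizations and filters, covariates (1 surrogate variable by sva 3.50.0), a block on replicate number and leaving out birds. Standard errors are the absolute log2 fold change over the square root of F. Single genes used exact permutation with a pseudocount of 1. For spread, deviations from an estimated median are only approximately exchangeable. Relations used 100000 permutations. Counting error is the Poisson error of the read pairs. The pairs carry no molecular identifiers, so it is a lower limit. Steps were tested on simulated data. Between libraries of a population the chi-square per gene was never under 3.33, so none was a duplicate.

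The members and lists were chosen with earlier results of these data known. The named genes are the 4 members, list genes that are partners of a member or have an unadjusted p under 0.05, and the 3 genes most like each member. Symbols came from 1223 rows of the study's annotation table, and rows ranked there by p were left out of list counts and of the search for like genes. A gene of the corticosteroid list is not reported here and was left out of its count and median. HSD3B1, AHSA1 and BAG1 were named after their values were seen, and the relations with GNRH1 and NPVF and the haemoglobin covariate were added after seeing the data. No genome or sequence was used. The birds were separate animals, so p-values measure the spread between birds.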

Additional observations from a re-analysis of the deposited data

Results flagged for a closer look

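In 3 of 14 groups examined, 1 bird lay far from the rest, and none of the 3 was a level of CRH, AVPR1A, NR3C2 or HSD11B2. Chance alone gives about 1 group in 20. That rate is only a rough guide here, since the groups share birds and the first principal component is computed from these same libraries. Resident replicate 4 was far above the other residents on the first principal component (gap over range 0.628) and in summed haemoglobin, at 10385 CPM (gap over range 0.592). Migrant replicate 1 was far above the other migrants on the first principal component (gap over range 0.883). NR3C2 was at 1.29 CPM in resident replicate 4 and 1.64 CPM in migrant replicate 1, the lowest values of all birds. Resident replicate 2, highest for AVPR1A, had a gap over range of 0.565 there, just under the limit used.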

How the results depend on the processing

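Under every alternative run, CRH stayed without a call, as did AVPR1A, NR3C2 and HSD11B2. With DESeq2 and with edgeR's likelihood ratio test, 2 genes were higher and 1 was lower in residents, against 0 and 0. The log2 fold change of CRH turned to -0.0572 with the haemoglobin covariate, and without 1 bird it ran from 0.25 to 0.58. That of HSD11B2 turned to 0.0258 with library number as a covariate and ran from -0.43 to 0.0254 without 1 bird. With AVPR1A it ran from 0.08 to 0.61 and with NR3C2 from 0.14 to 0.41. HSD11B2 had no value with edgeR's default filter or with at least 10 counts, where it was not tested.

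The differences in spread were not fixed in sign. Without 1 bird they ran from -0.121 to 0.123 for CRH, -0.00626 to 0.231 for AVPR1A, -0.120 to 0.0365 for HSD11B2 and -0.0650 to 0.196 for NR3C2. Without migrant replicate 1 and resident replicate 4 they were 0.0133 for CRH and -0.0230 for AVPR1A, and with total counts only 0.0243 for HSD11B2. With total counts only, the relation of CRH with haemoglobin (r = -0.786) and that of NR3C2 with the first principal component (r = -0.878) passed. Both had an adjusted permutation p of 0.0488. The first principal component kept its TMM scaling here, so in that relation only NR3C2 was rescaled. Migrant replicate 1 and resident replicate 4 had the lowest TMM factors, 0.905 and 0.897. Leaving the factors out thus lowers NR3C2 in these libraries relative to the others. In the same setting r was 0.107 for NR3C2 with CRH and 0.0376 for HSD11B2 with AVPR1A. CRH with haemoglobin did not pass without migrant replicate 1 and resident replicate 4 (r = -0.667, adjusted permutation p = 0.309). Without migrant replicate 1 and resident replicate 4, the component computed anew, r turned to 0.235 for NR3C2 and 0.297 for AVPR1A with the first principal component, to -0.334 for NR3C2 with AVPR1A, 0.394 with haemoglobin and -0.113 with the total count. A component computed anew is another axis, so the values with it are not the same relations as over all birds. With the scores from all birds, r without these libraries was -0.14 for NR3C2 and 0.25 for AVPR1A. The cause of the turns was not tested.

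Replicate numbers did not pair the birds: deviations of birds with the same number correlated between -0.185 and 0.0625, and no migrant correlated best with its own number. With the replicate block, which leaves out resident replicate 7, the log2 fold changes were 0.30 for CRH, 0.29 for AVPR1A, 0.24 for NR3C2 and -0.32 for HSD11B2, and 0 genes were called. HSD11B2 had from 1 to 11 counts per bird.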

Other observations

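GNRH1 and NPVF, precursors of the peptides that raise and lower gonadotropin release, were set beside the 4 genes after the data had been seen, as 8 relations of population-centred log2(CPM + 1) over 13 birds. None passed after Benjamini-Hochberg adjustment over these 8. GNRH1 with NR3C2 had r = -0.54 (permutation p = 0.0975, adjusted p = 0.390; rho = -0.51, permutation p = 0.125, adjusted p = 0.376), with r of -0.62 in residents and -0.25 in migrants, and -0.52 without resident replicates 3 and 5. GNRH1 with CRH had r = 0.45 (permutation p = 0.175, adjusted p = 0.393; rho = 0.48, permutation p = 0.141, adjusted p = 0.376), with r of 0.41 in residents and 0.81 in migrants, and 0.66 without resident replicates 3 and 5. NPVF with HSD11B2 had r = -0.53 (permutation p = 0.0718, adjusted p = 0.390; rho = -0.50, permutation p = 0.0970, adjusted p = 0.376), with r of -0.76 in residents and -0.13 in migrants, and -0.67 without resident replicate 1 and migrant replicate 3. Without migrant replicate 1 and resident replicate 4, these 3 values of r were -0.57, 0.66 and -0.58. The other 5 relations had r between -0.37 and 0.42 over all birds. Of these, GNRH1 with AVPR1A had r = 0.22 over all birds and 0.66 without those libraries (adjusted permutation p = 0.149), and NPVF with CRH had 0.42 over all birds and 0.53 without them.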
